A study of Mus musculus with 7 samples.

Results

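Heat shock proteins and their J-domain partners form the main protein folding machinery of the cell, and 72 of their genes were followed here in the mouse heart. The set took every gene of the deposited table, out of 23420, whose symbol begins with Dnaj, with Hsp90, or with Hspa, Hspb, Hspd, Hspe or Hsph and a digit. It holds 45 Dnaj genes and 27 Hsp genes. Of the 72 genes, 68 reached 10 normalized counts in at least 3 libraries and were tested. The other 4 were Dnajb8, listed at 0 in every library, and Dnajc22, Dnajc5b and Dnajc5g, which stayed at or under 5.01 normalized counts in each library.

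The study sequenced total RNA from flash-frozen heart of mice with a genetic form of myocarditis, used as a model of the heart inflammation that immune checkpoint inhibitors (ICI) can cause. The 3 ICI-myocarditis mice were Ctla4+/- and Pdcd1-/-, and the 4 control mice were Ctla4+/+ and Pdcd1-/-, so the loss of Pdcd1 was shared by all 7. Animals of both groups were 3 to 6 weeks old and untreated, the tissue is labelled whole heart while the extraction protocol names ventricle, and each library is named as a separate mouse of its group. CTLA-4 and PD-1 are receptors that restrain T cells, and the labels name no Cre, no floxed allele and no inhibitor, so the model rests on the genotypes alone.

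HSP70 proteins bind unfolded stretches of other proteins and release them in a cycle driven by ATP. J proteins (the Dnaj genes) hand clients to HSP70 and start that cycle, HSP110 proteins and other exchange factors reset it, and HSP90 takes on partly folded clients such as kinases and steroid receptors. Small heat shock proteins hold unfolding proteins without using ATP, and cardiac muscle is rich in them. The cytosol, the endoplasmic reticulum (ER) and mitochondria each have their own HSP70 and HSP90, and mitochondria also have the HSP60 chaperonin. Heat and proteotoxic stress induce many cytosolic members through heat shock factors, and unfolded protein in the ER induces the ER members through the unfolded protein response.

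Libraries held between 20931730 and 39037176 reads assigned to genes. Ctla4 ranged from 29.2 to 113 normalized counts in control libraries and from 251 to 373 in ICI-myocarditis libraries, and Pdcd1 from 2.50 to 244 and from 1096 to 1481. Which part of Pdcd1 is deleted is not given in the labels, and both genes moved with the T cell markers, so neither level checks the genotype. The labelled tissue carried its defining markers: all 10 cardiomyocyte genes were abundant, summing to between 2757000 and 6044000 normalized counts in controls and between 1939000 and 3298000 in ICI-myocarditis. Of the T cell genes, 7 of 7 tested rose, from sums of 125 to 1590 to sums of 7134 to 10940. Of the macrophage and monocyte genes, 7 of 7 tested also rose, from 11310 to 16530 to 56580 to 88510. Control 2 stood apart among controls, with the highest T cell sum (1590 against at most 184 in the other controls) and the lowest cardiomyocyte sum.

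Few of the chaperone genes passed the test of a difference between the groups. With limma on log2(normalized count + 1), 3 of the 68 tested members passed the threshold of 0.05 for the adjusted p (4.41%), against 15.7% of the 15258 genes tested. Dnajb13 rose, against a background of 11.7% of genes that rose, and Hspa12a and Dnajc28 fell, against 4.00% that fell. At an unadjusted p under 0.05 there were 11 members (16.2%), against 30.1% of all genes tested. Of the 68 members, 49 differed by less than 0.5 on the log2 scale in either direction, and the share of all genes that did so was not counted. The median log2 fold change of the members was -0.09, beside -0.02 over all genes tested. The sign of that median is not firm: it was -0.24 without control 2, but 0.02 without ICI-myocarditis 3, 0.04 without control 4 and 0.07 with scaling by total reads. Whether the shares of members and of all genes differ was not tested.

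The control and ICI-myocarditis libraries did not overlap for 10 of the 68 members (28.6% of all tested genes showed such a gap). All ICI-myocarditis values lay above all control values for Dnajb13, Dnajb3, Hspb9 and Dnajc9 (17.3% of all tested genes), and below them for Hspa12a, Hspa12b, Dnajc28, Hspd1, Dnaja3 and Dnajc27 (11.3%). Together the 72 genes took 0.866% ± 0.112 of control reads (SD, n = 4) and 0.819% ± 0.0159 of ICI-myocarditis reads (SD, n = 3), a difference smaller than the spread among controls. In RNA from whole tissue, fewer cells of a type and less RNA per cell cannot be told apart, and this holds for every lower or higher value below.

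Control 2 weighed on these counts. It was the lowest of the 4 controls for 45 of the 68 members, while it was lowest for 30.9% of all tested genes. Without it, 10 members passed the threshold: the 3 already named, and Hspd1, Dnaja3, Hspa9, Dnajc21, Dnajc27 and Hsph1, which were lower, and Hspb9, which was higher. In that setting 22.1% of all tested genes passed. Without ICI-myocarditis 3, in contrast, 2 members passed, beside 6.55% of all genes.

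**Figure D1:**
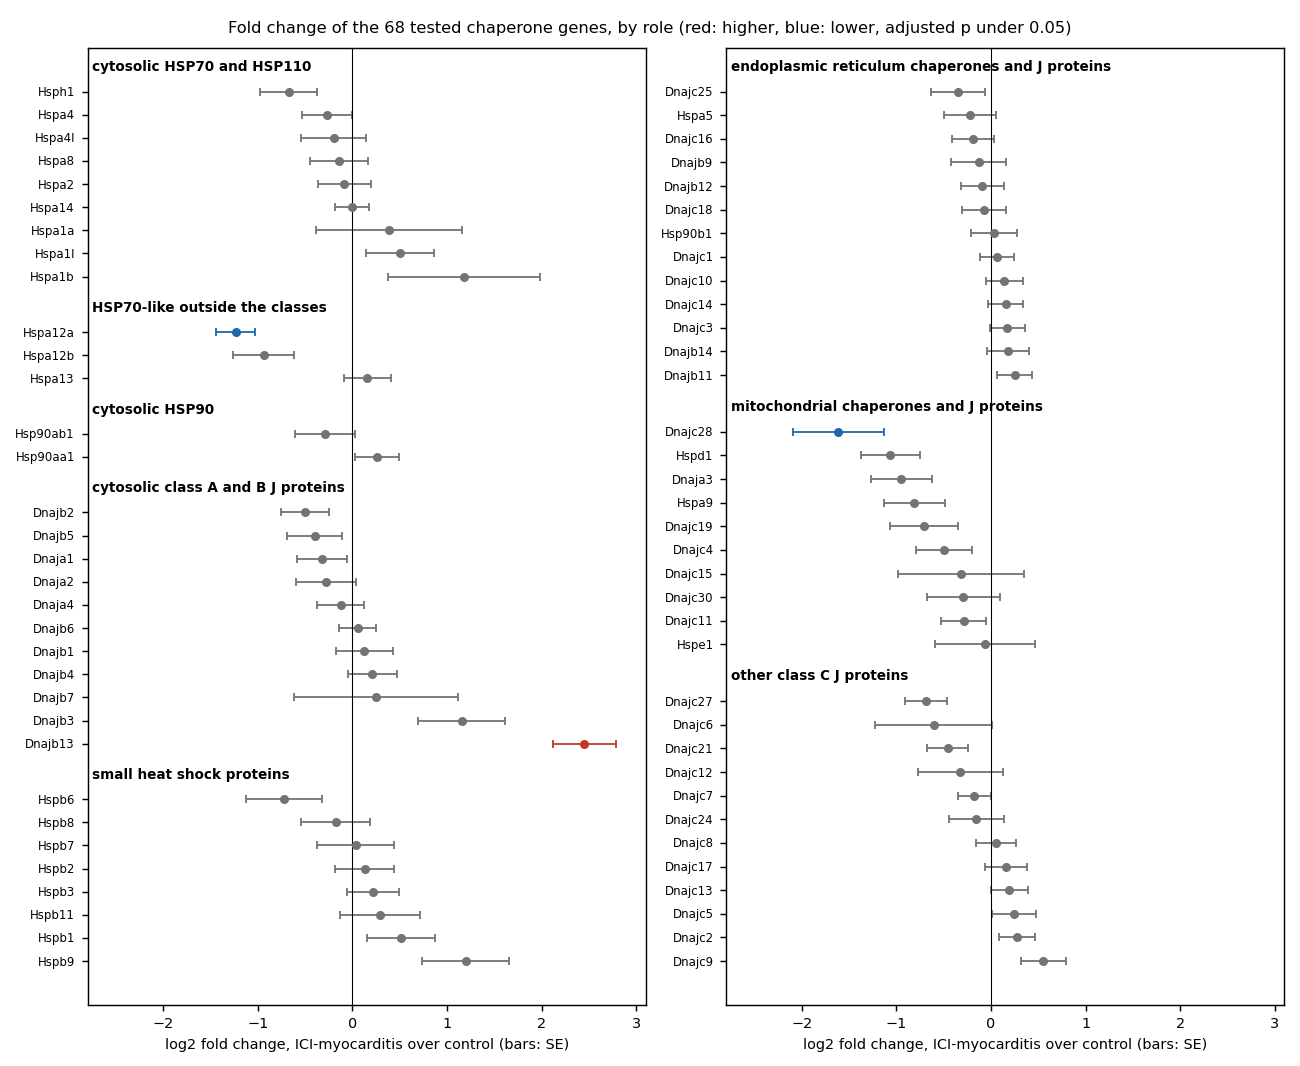
Log2 fold change of ICI-myocarditis against control, from log2(normalized count + 1), with its standard error for the 68 tested members, grouped by role. The members that passed are coloured: Dnajb13 at 2.45 in red, and Hspa12a at -1.23 and Dnajc28 at -1.61 in blue. All 10 mitochondrial members lie left of 0.

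Levels between genes can be compared only per length, here as normalized counts per kilobase of annotated exon. On that scale the most abundant members in control hearts were Hspb7, a small heat shock protein of heart and muscle, at 12080 ± 5245 per kb (SD, n = 4), and Hsp90ab1, the constitutive cytosolic HSP90, at 11510 ± 3459 per kb. Hspb6 (7835 ± 3489 per kb), Hspa8 (7449 ± 2028 per kb) and Hspb8 (6285 ± 2124 per kb) followed. Hspb7 and Hsp90ab1 differed by less than their SDs, as did the 3 genes that followed. The chief ER and mitochondrial HSP70 genes came next and were close, with Hspa9 at 4806 ± 1411 and Hspa5 at 4431 ± 989 per kb. The stress-inducible HSP70 genes were far lower, with Hspa1a at 49.4 ± 67.0 and Hspa1b at 52.2 ± 69.0 per kb, and most of that came from 1 library.

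Among the 9 cytosolic HSP70 and HSP110 genes, none passed the test, and their median log2 fold change was -0.09. Hspa1a and Hspa1b encode nearly identical HSP70 proteins and are the classic heat-inducible genes. Hspa1a stood at 445, 54.3, 46.9 and 40.0 normalized counts in controls 1 to 4 and at 84.9, 87.0 and 170 in ICI-myocarditis 1 to 3. Hspa1b stood at 436, 66.6, 54.7 and 28.8 in controls and at 135, 147 and 337 in ICI-myocarditis. For both genes control 1 was the highest of all 7 libraries, and the 3 ICI-myocarditis libraries lay above the other 3 controls.

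The log2 fold change was 0.39 (SE 0.773, limma adjusted p = 0.786) for Hspa1a and 1.18 (SE 0.803, adjusted p = 0.367) for Hspa1b. Control 1 decided the call for Hspa1b. Without control 1 the log2 fold change of Hspa1b was 1.97 with limma adjusted p = 0.0419, which passes, and that of Hspa1a was 1.19 with adjusted p = 0.0908, which does not. In the authors' deposited table neither gene has a p-value before or after adjustment, although both have means above 100 normalized counts. The log2 fold change there is 0.49 for Hspa1b but -0.36 for Hspa1a, the opposite sign to the value above. Group means of Hspa1a in normalized counts were also lower in ICI-myocarditis, at 114.1 beside 146.5 in controls.

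Control 1 exceeded the highest other control 8.19-fold for Hspa1a and 6.54-fold for Hspa1b. Only 3 of the 15258 tested genes showed a lead of at least 5-fold for control 1 with another control at 10 or more, and these were 2 of them. Of 16 chaperone and cochaperone genes read for this, picked by hand and not by a rule, control 1 was the highest control for 11. Besides Hspa1a and Hspa1b, its leads were 1.73-fold for Dnajb1, 1.68-fold for Dnaja1, 1.60-fold for Hspa2, 1.27-fold for Hspb1 and 1.14-fold for Hsph1. Leads were smaller for Hsp90aa1 (1.11), Bag3 (1.09), Dnajb5 (1.03) and Hspa8 (1.01). Control 1 was not the highest for the other 5. It stood at 0.652 of the highest other control for Hspb8, 0.773 for Hspa1l, 0.801 for Cryab, 0.935 for Hsp90ab1 and 0.954 for Dnajb2. Over the 68 tested members control 1 was the highest control for 16 (23.5%), beside 18.9% of all genes. The immediate early genes, a list read as a sign of stress at tissue collection, summed to 21650 normalized counts in control 1, to between 7505 and 14950 in the other controls, and to between 17520 and 18310 in ICI-myocarditis. Of these 12 genes, Junb and Atf3 rose (16.7%, beside 11.7% of all genes tested), though neither passed without ICI-myocarditis 3. The part of tissue handling in the Hspa1a and Hspa1b levels was not tested.

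The promoters of the pair are shown because the 2 genes are near copies that a reader needs to see side by side, and because the binding motif of heat shock factors lies in them. Heat shock factors bind inverted repeats of GAA and TTC, and the motif searched was GAANNTTC or TTCNNGAA, which reads the same on both strands. The stretches are the 150 bases before the RefSeq start site in GRCm38.p6, on the minus strand, at chr17:34972157-34972306 for Hspa1a and chr17:34959239-34959388 for Hspa1b, with the motif in capitals.
Hspa1a: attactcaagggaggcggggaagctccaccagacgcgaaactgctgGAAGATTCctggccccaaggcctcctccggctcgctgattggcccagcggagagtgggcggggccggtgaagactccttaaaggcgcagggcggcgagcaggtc
Hspa1b: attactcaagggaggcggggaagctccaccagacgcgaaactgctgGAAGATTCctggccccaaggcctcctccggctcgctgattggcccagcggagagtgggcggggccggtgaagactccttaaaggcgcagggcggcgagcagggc
These stretches are identical at 149 of 150 bases. The motif stood in 18 of the 75 RefSeq windows of 300 bases found for 58 of the 72 members (16 genes), beside 15.1% of the 32851 windows of all genes.

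The transcripts are alike too: of the 100-base windows of the annotated transcript, 47.1% of those of Hspa1a occur in Hspa1b and 49.9% the other way, so reads there could be assigned to either gene. The ratio of Hspa1b to Hspa1a was 0.98, 1.23, 1.17 and 0.719 in controls and 1.59, 1.69 and 1.98 in ICI-myocarditis, with no overlap. That log2 difference of 0.80 reached the smallest p of the exact two-sided permutation test, 0.0286, and 0.0857 after adjustment over the 3 ratios examined, all chosen after their values were seen. The ratio did not lean on control 1, whose value lay between those of the other controls.

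The constitutive HSP70 gene Hspa8 stood at 39340, 21120, 28890 and 38800 normalized counts in controls and 31300, 24570 and 29100 in ICI-myocarditis, which gives a log2 fold change of -0.14 (limma SE 0.310, adjusted p = 0.806). Hspa4, an HSP110-type exchange factor, gave -0.27 (SE 0.263, adjusted p = 0.538), and Hspa2, an HSP70 known for its role in sperm development, -0.09. The groups overlapped for all 3. Hsph1, the inducible HSP110, had the lowest fold change of this role. It stood at 2105, 947, 1203 and 1840 in controls and 952, 1119 and 701 in ICI-myocarditis, which gives a log2 fold change of -0.68 (limma SE 0.304, adjusted p = 0.172), and it passed only without control 2 (-0.88, adjusted p = 0.0468) of the 18 alternatives run.

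**Figure D2:**
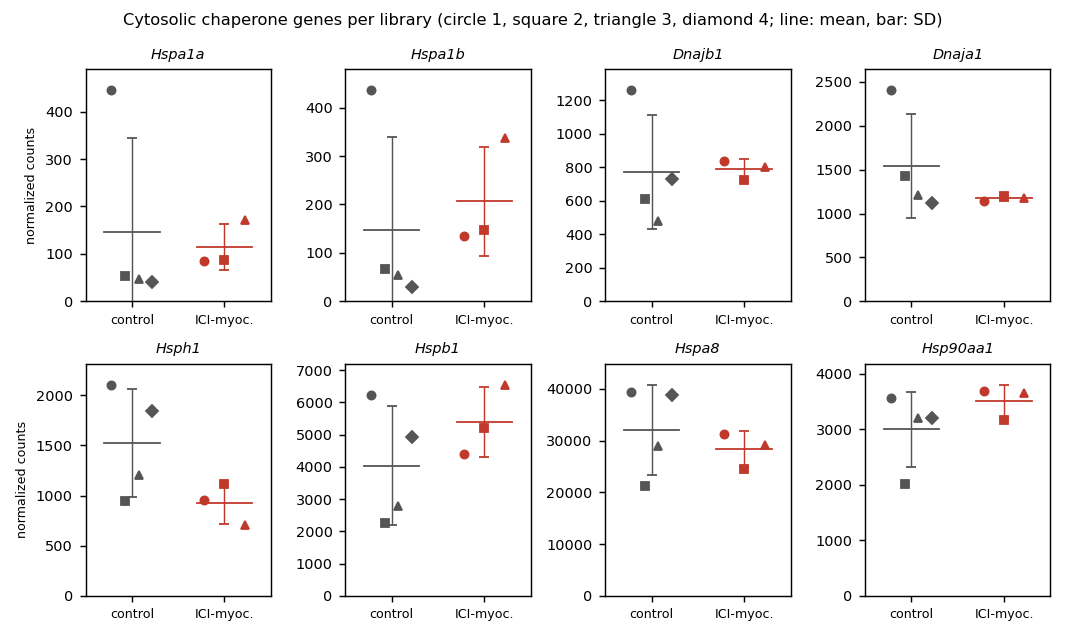
Normalized counts per library for 8 cytosolic chaperone genes, with the group mean and SD (an SD bar that would pass below 0 is cut there). Control 1 (grey circle) is the highest library for Hspa1a at 445 and Hspa1b at 436, and for Dnajb1, Dnaja1, Hsph1 and Hspa8.

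Of the 3 HSP70-like genes outside these classes, Hspa12a showed the decrease with the lowest adjusted p of the family. Hspa12a and Hspa12b encode distant relatives of HSP70, and Hspa12b is known from endothelial cells. Hspa12a, at chr19:58795750-58943654 on the minus strand (GENCODE M21, GRCm38), stood at 2031, 1332, 1612 and 1794 normalized counts in controls and at 612, 834 and 705 in ICI-myocarditis. The highest ICI-myocarditis value was well under the lowest control. Means were 1692 ± 295 (SD, n = 4) and 717 ± 112 (SD, n = 3), and the log2 fold change was -1.23 (SE 0.206, limma adjusted p = 0.00596, 95% interval -1.70 to -0.77). It passed in all 18 alternatives, with log2 fold changes from -1.35 to -1.07.

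Hspa12b stood at 2755, 4178, 2065 and 1460 in controls and at 1290, 1394 and 1125 in ICI-myocarditis. The groups did not overlap, but the controls spread widely and the log2 fold change of -0.94 (SE 0.324) had a limma adjusted p of 0.0831. It passed in 4 of 18 alternatives. Endothelial markers moved the same way: 3 of 8 fell (37.5%, beside 4.00% of all genes tested), and the median of the 8 was -1.02. Their sum was 31030 to 79860 in controls and 23420 to 29710 in ICI-myocarditis. Among controls, control 2 was highest and control 4 lowest for both the sum and Hspa12b. The part of endothelial content in the level of Hspa12b was not tested. Hspa13, a microsomal HSP70-like protein, differed by 0.16 (adjusted p = 0.727).

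Neither cytosolic HSP90 gene passed. Hsp90ab1 stood at 41540, 22060, 30050 and 44440 normalized counts in controls and 24780, 29840 and 27100 in ICI-myocarditis, which gives a log2 fold change of -0.29 (limma SE 0.319, adjusted p = 0.591). Hsp90aa1, the inducible form, gave 0.26 (SE 0.234, adjusted p = 0.512), with groups that overlapped. HSP90 works with cochaperones, which were read from a separate list.

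Of 25 heat shock factors and cytosolic cochaperones listed, 24 were tested, and 1 rose and 2 fell (12.5%, beside 15.7% of all genes tested); their median was -0.36, and 22 lay below 0. Fkbp4, an immunophilin that binds HSP90 in steroid receptor complexes, fell: controls stood at 11800, 6701, 10030 and 14810 and ICI-myocarditis at 4375, 4998 and 1566 (-1.68 as a log2 fold change by limma, SE 0.431, adjusted p = 0.0293). Fkbp5, a related immunophilin induced by glucocorticoids, rose, with controls at 1387, 528, 413 and 786 and ICI-myocarditis at 3030, 1070 and 4215 (1.77, SE 0.518, adjusted p = 0.0476). Its groups overlapped through control 1 and ICI-myocarditis 2, and it passed in 8 of 18 alternatives.

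Unc45b, the muscle cochaperone that folds myosin with HSP90, also fell. It stood at 7823, 6204, 6938 and 9255 in controls and at 4074, 4635 and 2343 in ICI-myocarditis (-1.08 as a log2 fold change by limma, SE 0.282, adjusted p = 0.0315). Fkbp4 passed in 13 and Unc45b in 12 of 18 alternatives, and neither passed without ICI-myocarditis 3. Hsf1, the main heat shock factor, was at 1280, 936, 846 and 1111 in controls and 799, 901 and 679 in ICI-myocarditis (-0.39, SE 0.207, adjusted p = 0.246). Bag3, a cochaperone of HSP70 and Hspb8 in muscle, gave -0.43 (adjusted p = 0.433). The 8 genes of TRiC, the cytosolic chaperonin that folds actin and tubulin, all stayed under the threshold, with fold changes from -0.22 to 0.02.

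Among the 11 tested cytosolic J proteins of classes A and B, only Dnajb13 passed, and the median log2 fold change was 0.05. Dnajb13 is known as a component of motile cilia and sperm flagella rather than a general folding factor. It stood at 28.2, 24.7, 15.6 and 25.0 normalized counts in controls and at 157, 119 and 116 in ICI-myocarditis, so that each ICI-myocarditis library was above every control by a wide margin. The log2 fold change was 2.45 (SE 0.334, limma adjusted p = 0.00365, 95% interval 1.70 to 3.20), the highest of the family, and it passed in all 18 alternatives with values from 2.26 to 2.60.

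The locus of Dnajb13 overlaps another gene. Its gene model, at chr7:100501716-100514960 on the minus strand, shares 305 exonic bases with Ucp2 on the opposite strand. Ucp2, which encodes a mitochondrial carrier protein, was far more abundant and rose as well, from 3484, 3877, 2195 and 2596 normalized counts in controls to 10060, 9656 and 13770 (1.90 as a log2 fold change by limma, SE 0.264, adjusted p = 0.00376). The library kit keeps strand, but whether strand was used in counting is not given in the sources used here. If it was not used, reads of the 2 genes cannot be told apart in the shared bases. The part of Ucp2 reads in the Dnajb13 level was not tested.

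The ratio of Dnajb13 to Ucp2 ran from 0.00636 to 0.00964 in controls and from 0.00843 to 0.0156 in ICI-myocarditis, and these ranges overlapped (exact permutation p = 0.114). Markers of cells that build motile cilia or flagella were scarce. Of 5 ciliated cell genes, 3 are in the table and 1 was tested and did not pass, with sums of 6.26 to 30.8 normalized counts in controls and 17.4 to 42.8 in ICI-myocarditis. In the authors' deposited table Foxj1, not tested here, has a log2 fold change of 3.08 (adjusted p = 0.0384) at a mean of 4.76 normalized counts. Ccdc39 has 0.189 and Tekt1 -0.379 there. None of 5 male germ cell genes reached the filter, with sums of 15.6 to 20.2 and 17.6 to 37.0.

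The general J proteins of the cytosol did not pass. Dnajb1, the stress-inducible partner of HSP70, stood at 1258, 613, 481 and 727 in controls and 839, 723 and 800 in ICI-myocarditis (0.12 as a log2 fold change by limma, SE 0.303, adjusted p = 0.826). Dnaja1 gave -0.32, Dnaja2 -0.28 and Dnaja4 -0.12, and Dnajb4 0.21 and Dnajb6 0.05, with adjusted p from 0.463 to 0.885. The lowest fold change belonged to Dnajb2, a J protein known from neurons and muscle, at -0.50 (SE 0.253, adjusted p = 0.218), followed by Dnajb5 at -0.40 (adjusted p = 0.398). Dnajb3, a gene known from testis, was higher in all ICI-myocarditis libraries but very low, at 4.03 to 7.40 in controls and 10.9 to 16.4 in ICI-myocarditis (1.15, SE 0.457, adjusted p = 0.124). It lies inside introns of the Ugt1a genes on the opposite strand, and Ugt1a7c, 1 of these, stood at 24.2 to 60.4 in controls and 100 to 189 in ICI-myocarditis.

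No ER member passed the test. Over the 13 ER chaperones and J proteins, the median log2 fold change was 0.03, and the range was from -0.35 (Dnajc25) to 0.25 (Dnajb11). Hspa5, the ER HSP70 (BiP), stood at 16190, 14810, 19790 and 24160 normalized counts in controls and 19140, 15080 and 13710 in ICI-myocarditis (-0.22 as a log2 fold change by limma, SE 0.275, adjusted p = 0.649, 95% interval -0.84 to 0.40). Hsp90b1, the ER HSP90 (GRP94), stood at 10390, 9672, 13400 and 14360 in controls and 12780, 11960 and 11520 in ICI-myocarditis (0.03, SE 0.243, adjusted p = 0.944). The groups overlapped for all 13 genes.

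The ER J proteins gave small differences. Dnajb9 and Dnajc3, J proteins induced by ER stress, gave -0.13 and 0.17, and Dnajb11, a lumenal partner of BiP, stood at 1319, 1198, 1360 and 1677 in controls and 1592, 1544 and 1788 in ICI-myocarditis (0.25, SE 0.182, limma adjusted p = 0.402). Its upper 95% limit was 0.66 on the log2 scale.

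Of 20 partner genes of the ER unfolded protein response, 5 rose (25%, beside 11.7% of all genes tested), 0 fell by limma, and 16 lay above 0 (median 0.26). Whether partners and members differ was not tested. Sdf2l1, a cofactor of the BiP cycle, rose from 154, 275, 228 and 232 to 602, 438 and 558 (1.28 as a log2 fold change by limma, SE 0.248, adjusted p = 0.0098). Ddit3 (CHOP), the transcription factor induced late in the response, rose from 383, 485, 318 and 282 to 1084, 754 and 714 (1.22, SE 0.248, adjusted p = 0.012). Manf (0.79, adjusted p = 0.0274) and Creld2 (0.79, adjusted p = 0.0246), small proteins secreted under ER stress, rose too, as did Pdia3 (0.69, adjusted p = 0.047), a disulfide isomerase that also serves the loading of MHC class I.

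The classic regulators and the exchange factor of BiP were not among them. Hyou1 gave 0.01 (adjusted p = 0.983), Xbp1 0.34 (adjusted p = 0.347) and Atf4 0.39 (adjusted p = 0.228). Sdf2l1 and Ddit3 passed in all 18 alternatives, Manf and Creld2 in 13 and Pdia3 in 9. T cell and macrophage markers moved with these genes, as given above, and their part in the partner genes was not tested.

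**Figure D3:**
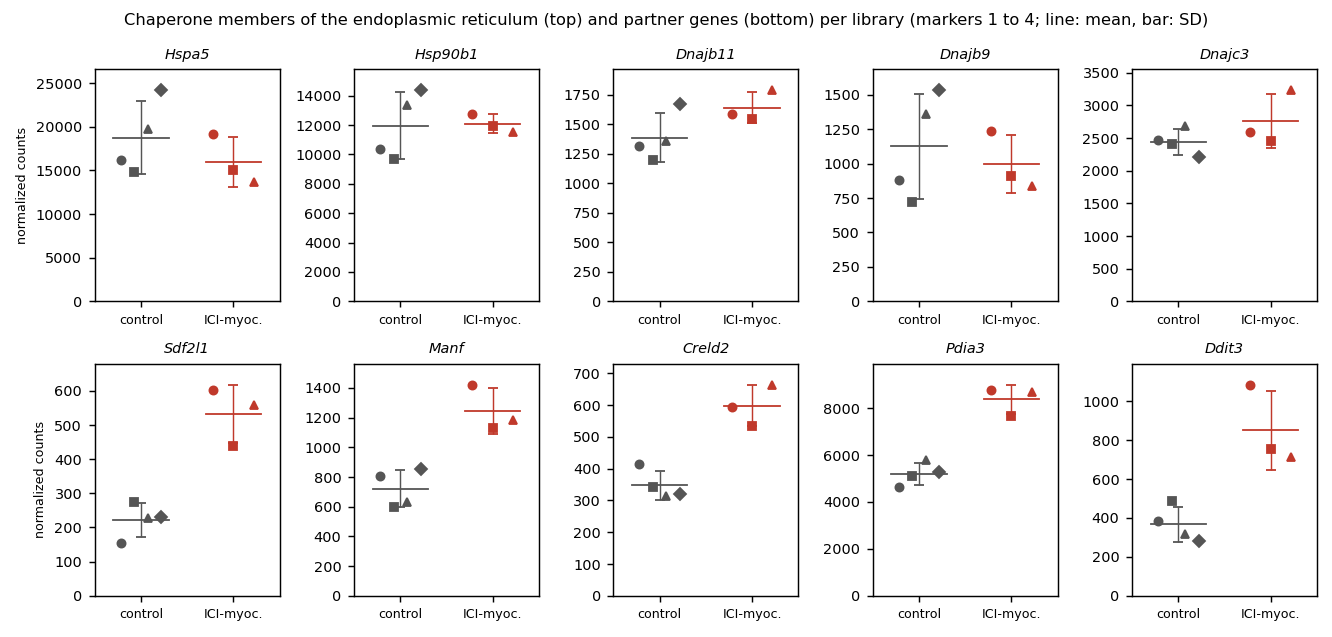
Normalized counts per library for 5 ER members (top) and 5 partner genes (bottom), with the group mean and SD. Controls and ICI-myocarditis overlap for each member, as for Hspa5 (14810 to 24160 against 13710 to 19140). They do not overlap for each partner drawn, as for Sdf2l1 (154 to 275 against 438 to 602). The 5 partners were drawn because they passed the test. Of all 20 partners, 6 showed no overlap, beside 28.6% of all tested genes.

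The promoters of Hspa5 and Hsp90b1 are shown because they carry the ER stress response element, through which ATF6 and XBP1 act on these genes. The motif searched was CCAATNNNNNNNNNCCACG on either strand. The stretches come from RefSeq in GRCm38.p6, at chr2:34771970-34772089 on the plus strand for Hspa5 and chr10:86705530-86705659 on the minus strand for Hsp90b1, with each match in capitals. The second match of Hsp90b1 is on the other strand.
Hspa5: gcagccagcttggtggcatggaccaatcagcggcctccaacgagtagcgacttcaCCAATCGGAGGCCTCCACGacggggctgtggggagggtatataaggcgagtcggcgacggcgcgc
Hsp90b1: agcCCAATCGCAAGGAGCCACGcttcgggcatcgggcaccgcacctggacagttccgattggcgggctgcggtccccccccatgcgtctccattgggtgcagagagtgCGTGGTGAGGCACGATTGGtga
The element stood in the windows of 3 members (Hspa5, Hsp90b1 and Dnajc3) and in 0.119% of all windows. The related motif ATTGGNCCACG stood in the window of Dnajb11 and in 0.0365% of all windows.

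All 10 mitochondrial chaperones and J proteins had a log2 fold change below 0, with a median of -0.60, though only Dnajc28 passed. The role took 0.142% ± 0.0270 of control reads (SD, n = 4) and 0.0927% ± 0.0241 of ICI-myocarditis reads (SD, n = 3). ICI-myocarditis 3 was the lowest of all 7 libraries for 8 of the 10 genes, and control 4 the highest for 9. With 1 library left out the median ran from -0.92 (without ICI-myocarditis 1) to -0.36 (without control 4), and it was -0.38 without ICI-myocarditis 3.

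Hspd1 encodes HSP60, the chaperonin of the mitochondrial matrix. It stood at 10770, 7134, 11560 and 13650 normalized counts in controls and at 5447, 6768 and 3429 in ICI-myocarditis, with every ICI-myocarditis value below every control. The log2 fold change was -1.06 (SE 0.315, limma adjusted p = 0.0502, 95% interval -1.78 to -0.35), just over the threshold. It passed in 6 of 18 alternatives, and in the authors' deposited table its adjusted p is 0.00907.

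Hspa9, the matrix HSP70 (mortalin), stood at 21190, 12310, 22620 and 26740 in controls and 12730, 13020 and 8870 in ICI-myocarditis. Only control 2 fell within the ICI-myocarditis range. The log2 fold change was -0.81 (SE 0.322, limma adjusted p = 0.127), and without control 2 it was -1.04 (adjusted p = 0.022). Dnaja3, its J protein partner (Tid1), stood at 4997, 3216, 4924 and 6910 in controls and 3046, 3194 and 1620 in ICI-myocarditis (-0.95, SE 0.324, adjusted p = 0.0813). The groups did not overlap, and without control 2 the value was -1.14 (adjusted p = 0.0258).

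Dnajc28, a J protein about which little is known, was the mitochondrial member that passed. At chr16:91614254-91619026 on the minus strand, it stood at 1200, 794, 1615 and 2285 in controls and at 691, 639 and 202 in ICI-myocarditis. The log2 fold change was -1.61 (SE 0.477, limma adjusted p = 0.0498), so close to the threshold that it passed in 6 of 18 alternatives. Without ICI-myocarditis 3, its lowest library, the log2 fold change was -1.04 (adjusted p = 0.161).

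The J proteins of the import motor gave other values. Dnajc19, whose human counterpart is mutated in a dilated cardiomyopathy, stood at 604, 590, 838 and 1471 in controls and 690, 531 and 337 in ICI-myocarditis (-0.71, SE 0.362, limma adjusted p = 0.226). Dnajc15 varied so much within groups, from 1234 to 5001 in controls and from 699 to 4700 in ICI-myocarditis, that its fold change of -0.32 had an SE of 0.665.

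Hspe1, the HSP10 lid of the HSP60 chamber, overlapped between groups, unlike Hspd1. It stood at 856, 606, 1067 and 2325 in controls and at 1927, 1122 and 487 in ICI-myocarditis (-0.07, SE 0.527, limma adjusted p = 0.951). The ratio of Hspe1 to Hspd1 ran from 0.0795 to 0.170 in controls and from 0.142 to 0.354 in ICI-myocarditis, and the ranges overlapped (exact permutation p = 0.114). Hspe1 is among the short transcripts, and the 809 tested genes with transcripts under 1 kb deviated together by library: their median deviation was 0.15 in control 4 and 0.36 in ICI-myocarditis 1 on the log2 scale, the libraries where Hspe1 was highest, and -0.19 in control 1 and -0.16 in ICI-myocarditis 3. The class holds 5 members, and they did not move alike. Hspb2 was also highest in control 4 (2554) and ICI-myocarditis 1 (2232). Hspb3 was highest in control 4 (306.5) and ICI-myocarditis 2 (264.5). Hspb1 was highest in ICI-myocarditis 3 (6547) and control 1 (6225), and Hspb9 in ICI-myocarditis 3 (37.4). Dnajc15, with a transcript of 6193 bases, was highest in control 4 and ICI-myocarditis 1 as well. The part of transcript length in the Hspe1 level was not tested.

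The stretch between Hspd1 and Hspe1 is shown because the 2 genes face away from each other and share it. One RefSeq start site of Hspd1 lies 215 bases from that of Hspe1. A second RefSeq start site of Hspd1 lies inside Hspe1, with no match of the motif in its window, and in GENCODE M21 the gene models overlap by 112 exonic bases. The stretch, chr1:55087933-55088147 in GRCm38.p6, is written on the strand of Hspd1, and the capitals mark overlapping matches of the heat shock motif in its triple form, TTCNNGAANNTTC or GAANNTTCNNGAA.
Hspd1-Hspe1: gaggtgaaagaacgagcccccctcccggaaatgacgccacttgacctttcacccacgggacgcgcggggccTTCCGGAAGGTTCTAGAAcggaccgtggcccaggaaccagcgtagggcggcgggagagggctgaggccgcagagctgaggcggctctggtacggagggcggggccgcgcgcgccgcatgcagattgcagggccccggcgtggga
The triple form stood in the windows of 4 members (Hspd1, Hspe1, Hsph1 and Dnajb6) and in 0.603% of all windows.

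Other proteins of mitochondrial folding and quality control also lay below 0. Of 11 tested partners 0 passed with limma, and 4 were under 0.05 before adjustment, beside 30.1% of all genes tested. All 11 were negative with a median of -0.62. Timm44, which anchors Hspa9 at the import channel, gave -0.87 (adjusted p = 0.0757), and Trap1, the mitochondrial HSP90, -0.62 (adjusted p = 0.19). Cardiomyocyte markers had negative values as well: none of 10 passed with limma (2 had an unadjusted p under 0.05), but all were below 0 with a median of -0.84, and 3 of the 10 mitochondrial members (Dnajc28, Hspd1 and Dnaja3) were below that median. The part of cardiomyocyte content in the mitochondrial members was not tested.

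**Figure D4:**
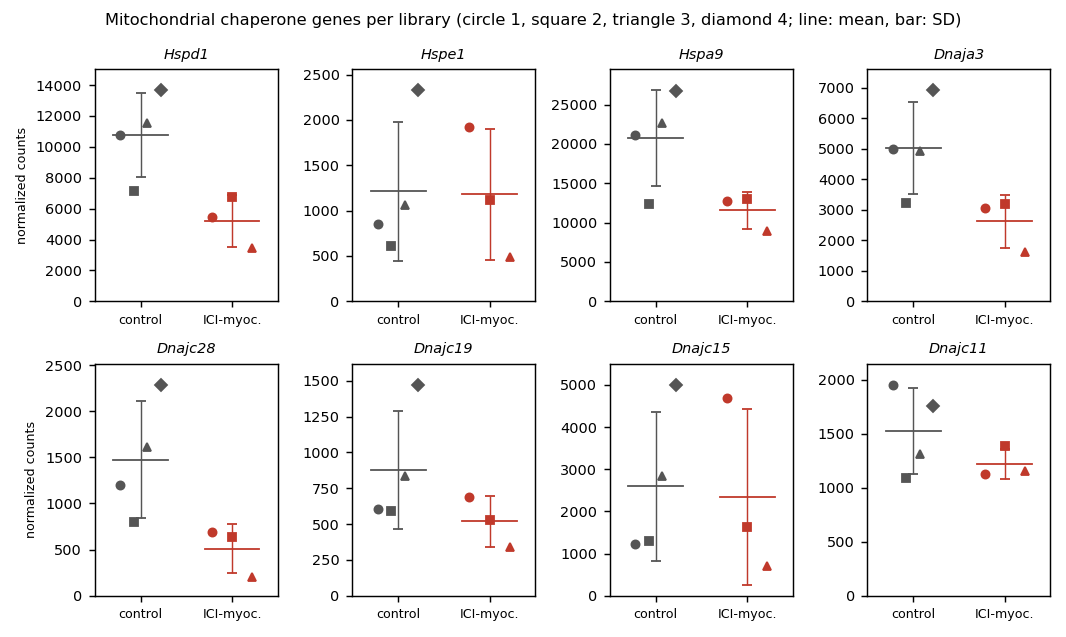
Normalized counts per library for 8 mitochondrial members, with the group mean and SD. Hspd1 (7134 to 13650 against 3429 to 6768), Dnaja3 and Dnajc28 show no overlap, while Hspe1 and Dnajc15 spread as widely within a group as between groups.

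Small heat shock proteins, the most abundant role by reads, took a like share in both groups: 0.215% ± 0.0598 of control reads (SD, n = 4) and 0.217% ± 0.0104 of ICI-myocarditis reads (SD, n = 3). None of the 8 passed, and their median log2 fold change was 0.17. Hspb1 (HSP27) stood at 6225, 2254, 2775 and 4917 normalized counts in controls and 4405, 5200 and 6547 in ICI-myocarditis (0.51, SE 0.361, limma adjusted p = 0.382). Hspb7 stood at 41780, 15460, 28430 and 48100 in controls and 26120, 32020 and 36980 in ICI-myocarditis (0.03, SE 0.410, adjusted p = 0.968). The controls spanned a wide range for these genes, with control 2 lowest for both.

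Hspb6 (HSP20), a cardiac small heat shock protein, had the lowest fold change of the role. It stood at 21900, 8873, 14290 and 26980 in controls and 9959, 13200 and 7623 in ICI-myocarditis (-0.73, SE 0.401, limma adjusted p = 0.263). Hspb8, the partner of Bag3, gave -0.18, Hspb3 0.21, and Hspb2, which lies beside Cryab and shares 252 exonic bases with it on the opposite strand, 0.13. Cryab itself, the alpha-B crystallin of the eye lens and heart, gave -0.11 (SE 0.312, adjusted p = 0.86). Hspb9, a gene known from testis, had the highest fold change (1.20, SE 0.460, adjusted p = 0.114) at low levels, 7.51 to 20.97 in controls and 21.02 to 37.4 in ICI-myocarditis, and passed only without control 2 (1.47, adjusted p = 0.0353).

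The other class C J proteins serve varied processes, from clathrin uncoating to ribosome assembly, and none of the 12 tested passed (median -0.05). Dnajc27, which joins a J domain to a small GTPase, came nearest. It stood at 540, 389, 430 and 584 in controls and 308, 339 and 250 in ICI-myocarditis, with no overlap (-0.69, SE 0.222, limma adjusted p = 0.0655). Dnajc21, a factor of ribosome assembly, gave -0.46 (SE 0.219, adjusted p = 0.196). Dnajc9, which carries histones to HSP70, had the highest value of the role: 250, 334, 391 and 458 in controls and 573, 482 and 490 in ICI-myocarditis (0.55, SE 0.237, adjusted p = 0.153), again with no overlap.

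In the authors' deposited table, 8 members have an adjusted p under 0.05: Dnajb13 is higher, and Hspa12a, Dnajc28, Hspd1, Dnajc27, Hspa12b, Dnaja3 and Hspa9 are lower. The share of all genes under 0.05 in that table was not counted, so this number has no background beside it. DESeq2 on the recovered reads gave 8 members as well, beside 22.6% of all genes tested, and edgeR gave 2 members, Dnajb13 and Hspa12a, beside 13.6%.

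Which library was highest or lowest often crossed the groups. Control 4 was the highest of all 7 libraries for 34 of the 68 members (50%), beside 27.1% of all genes tested. Control 2 was the lowest of all 7 for 27 members (39.7%), beside 12.8% of all genes. ICI-myocarditis 3 was the lowest for 19 members (27.9%, beside 25.1% of all genes) and the highest for 13 (19.1%, beside 25.2%). These differences in share were not tested. The lowest value of a member thus often lay in a control heart. For 47 of the 68 members the SD among the 4 controls was larger than the difference between the group means. The share of all genes for which this holds was not counted, so it is not read as a trait of the members.

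**Figure D5:**
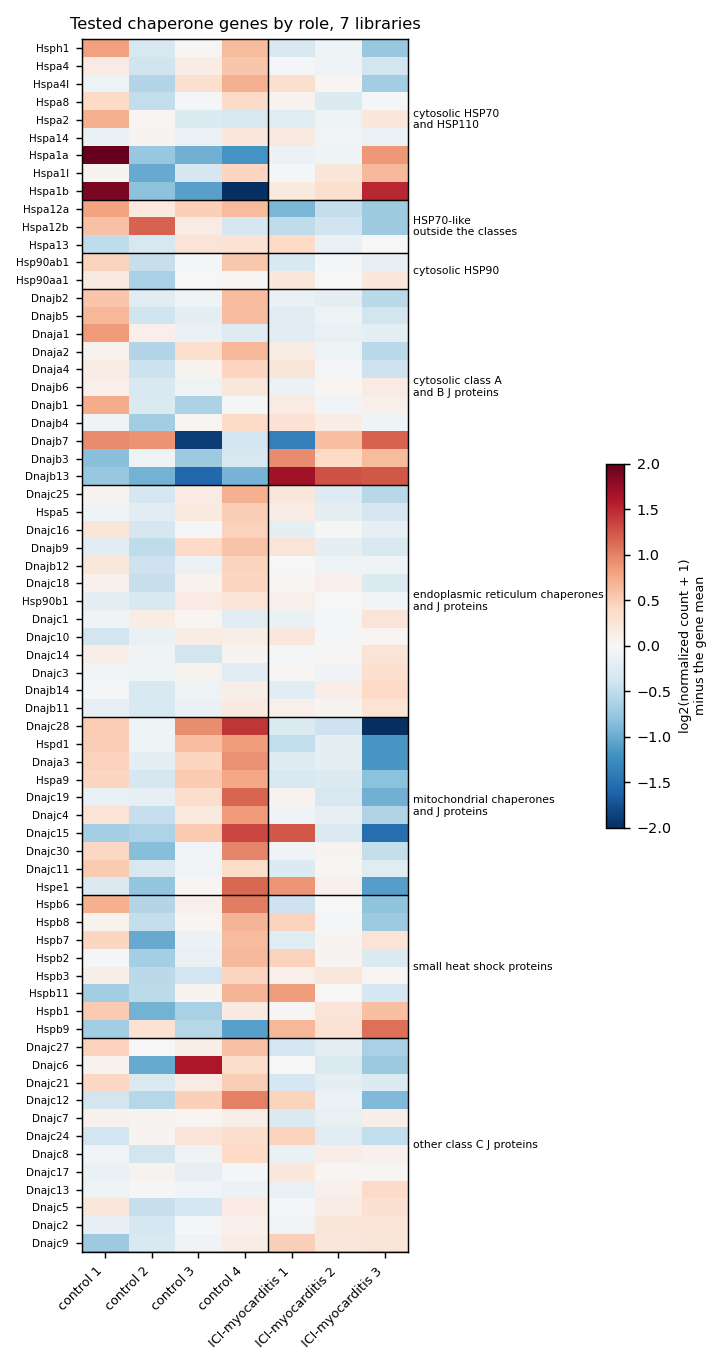
Deviation of log2(normalized count + 1) from each gene's mean over the 7 libraries, for the 68 tested members grouped by role; the colour scale stops at -2 and 2. Control 4 is the highest library for 34 members and control 2 the lowest for 27, and Hspa1a and Hspa1b are the members where control 1 stands out.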

How the data were processed

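RNA was sequenced from the hearts of 4 control and 3 ICI-myocarditis mice. The submitters' processing notes name STAR 2.7.3 and the builds GRCm38 and mm10; the counting program, annotation and strand setting are not given in the sources used here. The deposited per-library signal is a normalized count, which the authors obtained by scaling reads with a size factor for each library. The values show this: every column is made of multiples of 1 step, and 100% of values are whole reads within 0.001. In control 1 the step was 1.01, a weaker sign. Per the file headers the table also holds the authors' log2 fold change and its standard error, a test statistic (score), and p-values before and after adjustment. Of its gene names 27 were turned into dates and 2 were repeated.

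The filter kept genes that reached 10 normalized counts in 3 or more libraries. They were tested on log2(normalized count + 1) with limma 3.58.1 under R 4.3.3, with a trended, robust empirical Bayes fit. Benjamini-Hochberg adjustment ran over all 15258 genes, with a threshold of 0.05. Fold changes on this scale understate those of low genes. Alternatives were pseudocounts of 0.5 and 5, no filter or a minimum of 50, an untrended fit, scaling by total reads or TMM, edgeR (4.0.16), DESeq2 (1.42.0) and voom with quality weights on recovered reads, a replicate block, and leaving out each library. The limma, edgeR and DESeq2 fits were checked on simulated counts with the same spread setting for every gene and no outlying library. That check does not cover libraries that stand apart, as here, and voom, the replicate block and the permutation tests were not checked. At 20931730 to 39037176 reads per library, the spread between animals limits precision for all but low genes and, lacking molecular identifiers, reads are not independent molecules.

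Positions are from GENCODE M21 (GRCm38, all 72 members matched by symbol) and promoter windows, 250 bases before to 50 after the start, from RefSeq GRCm38.p6 (58 members, 75 windows). Named genes are the members that passed, the best known members and the extremes of each role. Partner genes that passed are named too (at most 6 of each list), and a few partners whatever their values. Hspa12b, Dnajb3, Dnajc21, Timm44, Ucp2 and Ugt1a7c were added after their values were seen. The members and all lists were chosen with earlier results of these data known. Replicate numbers were not treated as pairs in the main fit. Deviations of same-numbered libraries correlated at -0.271, -0.206 and -0.0784. Those of differently numbered libraries ran from -0.477 to 0.451, so this check cannot decide whether libraries were paired. The labels give no batch.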

Additional observations from a re-analysis of the deposited data

Results flagged for a closer look

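Hspa1a in control 1 lay far above the other 3 controls. On the log2(normalized count + 1) scale its gap to the nearest of them was 0.875 of the whole range of the controls, above Dixon's critical value for 4 samples. It was the only member of 68 so marked on that scale, where chance alone would mark about 3.4. In normalized counts the values were 445 in control 1 and 54.3, 46.9 and 40.0 in the others.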

How the results depend on the processing

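Of the 3 members that passed, Dnajb13 and Hspa12a passed under all 18 alternatives and Dnajc28 under 6. The number of members that passed was 8 with DESeq2 (22.6% of all genes passed there) and 9 with voom (26.2% of all genes), and 2 to 10 when 1 library was left out. The number higher was 2 with the untrended fit and 1 to 2 with 1 library left out. The number lower was 1 with a pseudocount of 0.5, with no filter, with a filter at 50, with the untrended fit and with edgeR, 7 with DESeq2, 8 with voom, and 1 to 8 with 1 library left out. The 5 partner lists held 24, 8, 20, 11 and 12 tested genes. Partner genes that passed numbered 10 in the main fit (15.7% of all genes passed there). They numbered 20 with voom (26.2% of all genes) and 6 with the replicate block (11.7% of all genes). When 1 library was left out they ran from 2 without ICI-myocarditis 3 (6.55% of all genes) to 13 without control 2 (22.1% of all genes). Members whose groups did not overlap numbered 10 to 20 with 1 library left out, the highest without control 2. A gap is easier to reach with fewer libraries, and the share of all genes was not counted in these settings. The rise is therefore not read as a trait of the members. The median log2 fold change of the members ran from -0.24 to 0.0417 with 1 library left out, was 0.0709 with scaling by total reads and 0.0417 with the replicate block. With the block 3 members passed, Hspa12b in place of Dnajc28. The block discards control 4, which shares its number with no other library, so its fold changes equal those without control 4. Scaling by total reads moved the median of all genes from -0.02 to 0.13, and Hspd1 passed there in place of Dnajc28.

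Log2 fold changes that changed sign all belonged to genes that did not pass in those settings. With scaling by total reads Dnaja4 was 0.035, Dnajb9 0.0278, Hspa2 0.0739, Hspa8 0.0191, Hspe1 0.0943 and Cryab 0.0541. With voom Dnajc3 was -0.00247, Hsp90b1 -0.0549, Hspa13 -0.0656, Hspb7 -0.0422 and Hspe1 0.0948. With edgeR Hspa1a was -0.379, Hspb7 -0.0764 and Hyou1 -0.00558, and with DESeq2 Hspa1a was -0.361 and Hspb7 -0.0734. With the replicate block Dnajb9 was 0.0386, Dnajc15 0.0811, Hspb8 0.0242, Hspe1 0.309 and Cryab 0.0639. With 1 library left out the values ran from -0.285 to 0.0478 for Dnaja4, -0.0694 to 0.392 for Dnajb1, -0.0417 to 0.135 for Dnajb6, -0.321 to 0.0386 for Dnajb9, -1.03 to 0.344 for Dnajc15, -0.0612 to 0.129 for Hsp90b1, -0.214 to 0.139 for Hspa2, -0.0802 to 0.364 for Hspb2, -0.295 to 0.251 for Hspb7, -0.463 to 0.133 for Hspb8, -0.526 to 0.465 for Hspe1, -0.298 to 0.0639 for Cryab and -0.0496 to 0.0545 for Hyou1. The cause was not tested. Of 787 values for 44 named members, 711 kept their direction and their side of the threshold.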
